A study of Homo sapiens with 12 samples.

Results

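The TNF superfamily was followed in RNA-seq libraries of IMR90 ER:RAS cells, human lung fibroblasts that carry a RAS protein fused to the hormone-binding part of the estrogen receptor. Its members were taken by symbol: the protein-coding genes whose symbol starts with TNFSF or TNFRSF, together with TNF, LTB, LTBR, NGFR, CD40, CD70 and CD27. This gave 40 genes of the 62069 in the table, 15 ligands and 25 receptors. A count was found for 36 of them in at least 1 library, and 4 were at 0 in all 12 libraries.

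There were 4 groups of 3 libraries, and all were made from the same cell line at passage 13 with the labels giving day 5. The non-induced group had no 4-hydroxytamoxifen (4OHT). The induced group received 100 nM 4OHT, which switches on the fused RAS and starts oncogene-induced senescence (OIS), a stable growth arrest with a changed secretome. The groups shXPO7_3 and shXPO7_5 received the same 4OHT and each expressed 1 of 2 short hairpin RNAs against XPO7, an importin-beta family transporter of proteins through the nuclear pore. The comparison of induced with non-induced libraries asked how these genes differ in cells given 4OHT to start OIS, and is called OIS below. No group had 4OHT without the fused RAS, so effects of 4OHT itself, of RAS and of senescence cannot be told apart. The comparison of each shRNA with the induced group asked what loss of XPO7 does in cells that have been induced. The paper's scheme shows an empty vector in the groups without an shRNA, while the labels do not name it. The labels do not state whether the replicate libraries were grown as separate cultures. All p-values therefore reflect how far these libraries differ, and that difference could be technical only.

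TNF superfamily ligands are mostly made as membrane proteins that assemble as trimers, and many are cut from the surface to act on other cells. Their receptors fall into those with a death domain, which recruit caspases or kinases through FADD and TRADD, those that recruit TRAF adaptors and turn on NF-kB, and decoys that bind a ligand without passing on a full signal. The family is best known from lymphocytes and myeloid cells, where ligand and receptor pairs control survival and costimulation. Fibroblasts use a smaller set, among them the receptors for TNF, lymphotoxin, TRAIL and TWEAK.

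The libraries held between 28534141 and 60397769 counts. XPO7, the target of the shRNAs, was measured at 143, 132 and 129 CPM (counts scaled to a common library total) in the non-induced libraries and at 127, 144 and 139 CPM in the induced ones. It stood at 26.4, 28.7 and 27.9 CPM with shXPO7_3 and at 50.8, 54.0 and 51.8 CPM with shXPO7_5, so each knockdown library lay below every induced library. All 11 fibroblast markers were detected. Their sum was 24455.0 to 28205.7 CPM in non-induced and 17164.7 to 18629.5 CPM in induced libraries, without overlap. It was 17925.2 to 21725.3 CPM with shXPO7_3 and 19460.5 to 22107.0 CPM with shXPO7_5, the latter above every induced library. Of 9 immune markers 1, LYZ, passed the filter on low counts, CD3E, CD3D and MS4A1 were at 0 in every library, and the sum of the list was 0.371 to 0.822 CPM. Of 4 endothelial markers PECAM1 and CDH5 were at 0 throughout, while VWF (1.70 to 4.17 CPM) and KDR (0.170 to 1.10 CPM) passed the filter. The endothelial sum was 1.90 to 3.15 CPM in non-induced and 3.35 to 3.72 CPM in induced libraries, without overlap. It was 4.02 to 5.27 CPM with shXPO7_3, above every induced library, and 3.62 to 4.42 CPM with shXPO7_5. Of 5 epithelial markers KRT18, KRT8 and EPCAM passed the filter and KRT5 was at 0, with a sum of 37.8 to 56.6 CPM that overlapped between non-induced and induced libraries. The part of these markers' cells in the values that follow was not tested.

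During OIS the ligands TNFSF15 and TNFSF18 and the TRAIL receptors TNFRSF10A to TNFRSF10D rose, while TNFRSF1B, TNFRSF14, TNFSF12 and TNFSF4 fell. Of the 40 members, 21 passed the filter on low counts and were tested, 7 ligands and 14 receptors. At an adjusted p under 0.05 in edgeR's quasi-likelihood test over all 15284 genes, 14 of these 21 were called. There were 10 called higher, where 24.8% of all genes tested were called higher, and 4 called lower, where 26.1% of all genes tested were called lower. With a change of at least 1 on the log2 scale as well, 4 members were higher (6.78% of all genes) and 2 were lower (10.1% of all genes). The median log2 fold change of the 21 was 0.25, against -0.01 over all genes tested. These shares describe the members that passed the filter; 18 of the 21 were above its cutoff of 0.283 CPM in all 12 libraries, and TNFSF10, TNFSF13B and CD40 were above it in fewer. In bulk RNA such as this, fewer cells making a transcript cannot be told apart from less transcript per cell.

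**Figure D1:**
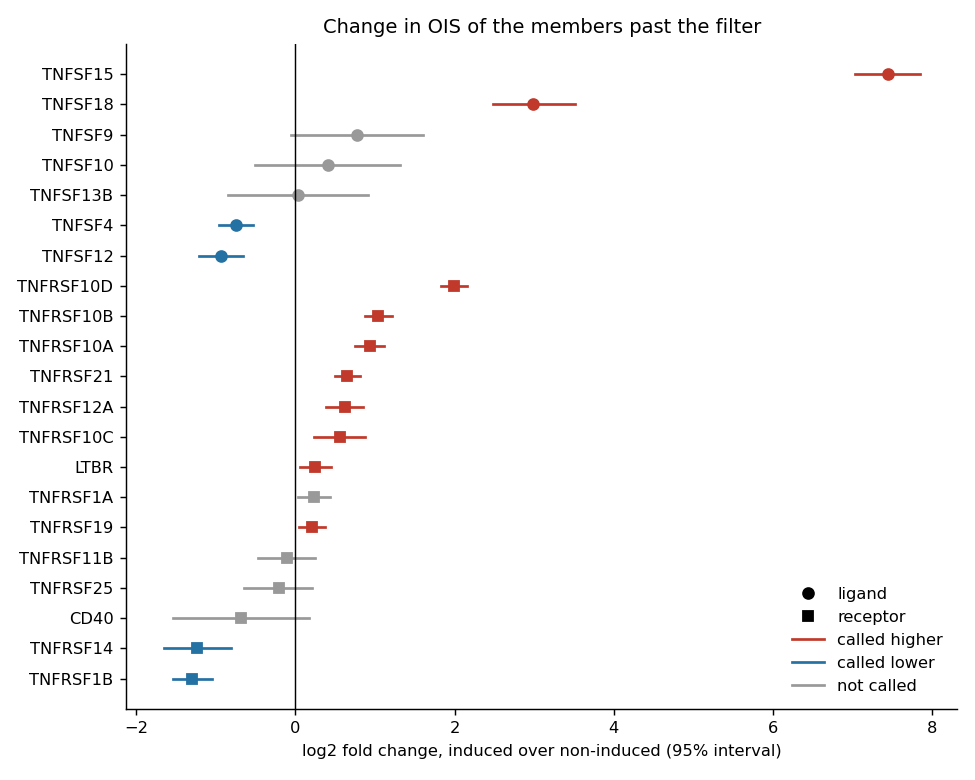
The log2 fold change of induced over non-induced libraries (x axis) is shown for the 21 members that passed the filter (y axis), ligands as circles and receptors as squares, with 95% intervals from the edgeR fit; red was called higher, blue lower and grey not called. TNFSF15 lies at 7.44 and TNFSF18 at 2.99, apart from the other 19, which lie between -1.30 and 1.99.

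TNFSF15, also called TL1A, is a ligand of the death receptor TNFRSF25 that costimulates lymphocytes and restrains endothelial growth. It was low without 4OHT, at 0.649, 0.729 and 0.453 CPM in the non-induced libraries. In the induced libraries it was measured at 108, 112 and 101 CPM, and the 2 groups were far apart. The log2 fold change was 7.44 ± 0.185 (SE), a 173-fold rise (adjusted p = 3.33e-11, edgeR), and only 18 of the 15284 genes tested rose more. The level stayed high in the knockdown libraries, at 82.5, 103 and 105 CPM with shXPO7_3 and at 74.4, 97.6 and 79.1 CPM with shXPO7_5. Its chromosomal neighbour in the superfamily, TNFSF8, the ligand of CD30, gave at most 2 counts in any library.

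TNFSF18, the ligand of GITR, rose as well. Its levels were 0.649, 1.17 and 1.08 CPM in non-induced libraries and 7.46, 8.36 and 7.59 CPM in induced ones, with no overlap. It rose by 2.99 ± 0.236 (SE) on the log2 scale (adjusted p = 5.02e-07, edgeR), and 194 genes rose more. Levels of 7.46, 10.5 and 10.7 CPM with shXPO7_3 and of 6.10, 9.15 and 6.09 CPM with shXPO7_5 also lay above every non-induced library.

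TNFSF18 sits on chromosome 1 between FASLG, the ligand of the death receptor FAS, and TNFSF4, the ligand of OX40. The 3 neighbours did not move together. FASLG had 0 counts in the 3 non-induced libraries and 34, 30 and 49 counts in the induced ones. Set against a floor of 3 counts over the non-induced group, this is at least 36-fold higher. TNFSF4 fell, from 29.7 CPM ± 1.02 (SD, n = 3) in non-induced to 17.7 CPM ± 0.938 in induced libraries, a log2 fold change of -0.74 ± 0.0979 (SE, adjusted p = 4.58e-05, edgeR). It was at 15.1 to 19.7 CPM over all 9 libraries with 4OHT and at 28.6 to 30.7 CPM over the 3 without.

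TNFSF12, or TWEAK, was the other ligand that fell, from 7.90 CPM ± 1.16 (SD, n = 3) to 4.15 CPM ± 0.204, a log2 fold change of -0.93 ± 0.128 (SE, adjusted p = 6.89e-05, edgeR). Its exons share 553 bases with those of the readthrough gene TNFSF12-TNFSF13, which had 0 counts in every library, so reads of the shared part may have been left out or assigned to 1 of the 2. The last ligands that passed the filter were low and were not called. TNFSF9, the ligand of the lymphocyte receptor 4-1BB, was at 0.388 CPM ± 0.0203 and 0.647 CPM ± 0.223 (SD, n = 3) in the 2 groups, with a log2 fold change of 0.78 and a 95% interval of -0.05 to 1.60. For TNFSF10, which is TRAIL, the interval ran from -0.50 to 1.32 around 0.41, and for TNFSF13B, the B cell survival factor BAFF, from -0.84 to 0.91 around 0.03. At these levels changes within those intervals could not be told from 0.

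The 250 bases before the starts of called members were read for short motifs of factors tied to RAS and TNF signalling. TNFRSF10A to TNFRSF10D were not searched, and RefSeq windows were matched by symbol for 8 of the other 10 called members. The AP-1 motif TGANTCA, which reads the same on both strands, was in 1 of the 8 windows and in 6.57% of all 35116 windows of that length. The consensus of NF-kB, searched on both strands, was in 1 of the 8 and in 5.21% of all windows, and 6 of the 8 held neither. A window lies before 1 start only, and several genes have more. For TNFSF15, whose window held the AP-1 letters, that start is 13596 bases inside the gene as GENCODE 29 draws it, so the bases before the 5′ end of the gene were not searched and the window is not shown. The start of LTBR is likewise 9117 bases inside the gene and that of TNFSF4 1781 bases. The nearest transcript start was 422 bases away for TNFSF15 (TNFSF15-201), 8 for LTBR (LTBR-206) and 26 for TNFSF4 (TNFSF4-202).

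The start of TNFRSF14, which fell, is 732 bases inside the gene and 5 bases from the start of its transcript TNFRSF14-201. The NF-kB letters, in capitals, lie 84 to 75 bases before it. The 104 bases around them that are in no exon of the gene are printed from RefSeq on GRCh38.p14, at chr1:2556262-2556365 on the plus strand. The match describes the letters and says nothing of binding.
TNFRSF14: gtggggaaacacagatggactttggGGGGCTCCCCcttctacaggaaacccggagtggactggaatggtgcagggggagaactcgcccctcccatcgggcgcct

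TNFRSF14, or HVEM, which binds LIGHT and the checkpoint receptor BTLA, fell in OIS. It was measured at 2.26, 2.14 and 1.87 CPM in non-induced libraries and at 0.956, 0.886 and 0.827 CPM in induced ones, without overlap. The log2 fold change was -1.23 ± 0.192 (SE, adjusted p = 0.000184, edgeR). With shXPO7_3 it stood at 1.37, 1.30 and 1.03 CPM and with shXPO7_5 at 1.01, 0.755 and 1.26 CPM.

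Of the receptors of TNF itself TNFRSF1B fell, and TNFRSF1A was not called. TNFRSF1A, the widely expressed receptor with a death domain, was at 123 CPM ± 10.7 (SD, n = 3) in non-induced and 145 CPM ± 4.17 in induced libraries. Its log2 fold change of 0.23 did not pass the threshold (adjusted p = 0.0583, edgeR), and it was called in 6 of 20 alternative analyses. TNFRSF1B, which has no death domain and signals through TRAF2, gave 29.9, 27.6 and 23.5 CPM without and 11.4, 10.5 and 11.1 CPM with 4OHT. That is a log2 fold change of -1.30 ± 0.113 (SE, adjusted p = 1.3e-06, edgeR). Within a library, the log2 ratio of TNFRSF1A to TNFRSF1B per length went from 2.05 to 2.18 in the non-induced to 3.54 to 3.75 in the induced libraries. It was 3.40 to 3.70 with shXPO7_3, which overlapped the induced libraries, and 3.47 to 3.50 with shXPO7_5, where each library lay below every induced one. There p was 0.1 (exact permutation test), the smallest that 3 against 3 can give. For single genes in CPM, 26.8% of all genes tested did not overlap, and no such share was computed for ratios. With shXPO7_5 neither gene was called, at 0.25 (TNFRSF1A) and 0.39 (TNFRSF1B) on the log2 scale. With the offset for GC content and transcript length, given below, these were 0.06 and 0.16. TNF, their ligand, gave 1 count in each of 2 induced libraries and 0 counts in the other 10.

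The TRAIL receptors TNFRSF10A to TNFRSF10D, 4 neighbouring genes on chromosome 8, all rose. TNFRSF10D, a decoy with a truncated death domain, was the most abundant of them per length and rose most. Its levels were 230, 212 and 194 CPM in non-induced and 798, 832 and 903 CPM in induced libraries, with no overlap. The log2 fold change was 1.99 ± 0.0767 (SE, adjusted p = 7.72e-10, edgeR), and 2.87% of all genes tested rose more.

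TNFRSF10B, the death receptor DR5 and a known p53 target, went from 195, 172 and 164 CPM to 367, 355 and 368 CPM. This was a rise of 1.04 ± 0.0781 (SE) on the log2 scale (adjusted p = 3.22e-07, edgeR). Lower in level, the death receptor TNFRSF10A rose from 7.29, 6.44 and 6.74 CPM to 13.1, 12.7 and 13.4 CPM, by 0.94 ± 0.0857 (SE) on the log2 scale (adjusted p = 1.93e-06, edgeR). The decoy TNFRSF10C, which has no cytoplasmic domain, rose from 2.51 CPM ± 0.192 (SD, n = 3) to 3.69 CPM ± 0.358, by 0.56 on the log2 scale (adjusted p = 0.00641, edgeR). These genes are related copies, and reads that match several of them may have been given to 1 copy or left out, so the split between them is uncertain.

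Taken per length, TNFRSF10C and TNFRSF10D made up 62.2% to 63.3% of the summed level of TNFRSF10A to TNFRSF10D in the non-induced libraries. In the induced libraries the share was 75.1% to 77.2%, and the groups did not overlap. It was 76.2% to 78.3% with shXPO7_3 and 75.9% to 76.4% with shXPO7_5, which both overlapped the induced libraries. The share holds for those 4 genes only. The secreted decoy TNFRSF11B was not in the sum, at 57.8 CPM per kb in non-induced and 53.5 in induced libraries. TRAIL itself was low, from 0.135 CPM to 0.574 CPM in the 9 libraries with 4OHT.

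**Figure D2:**
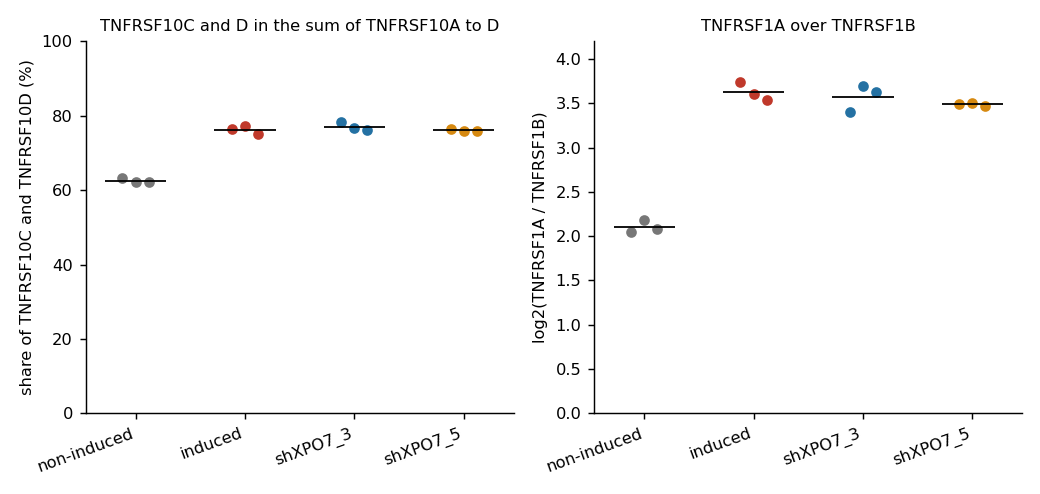
The left panel plots for each library the share (%) of the decoy receptors TNFRSF10C and TNFRSF10D in the summed level per length of TNFRSF10A to TNFRSF10D, and the right panel the log2 ratio of TNFRSF1A to TNFRSF1B per length; points are libraries and bars group means. The mean share is 62.6% in non-induced and 76.2% in induced libraries, and the mean log2 ratio is 2.11 and 3.63. With shXPO7_3 and shXPO7_5 the mean ratios are 3.58 and 3.49. The shXPO7_5 libraries do not overlap the induced ones (exact permutation p = 0.1, the smallest possible).

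Among the other receptors, TNFRSF12A and TNFRSF21 rose by about the same amount. TNFRSF12A, or Fn14, the receptor of TWEAK, went from 137 CPM ± 6.10 (SD, n = 3) to 211 CPM ± 9.62, a log2 fold change of 0.62 ± 0.107 (SE, adjusted p = 0.000405, edgeR). Its ligand TNFSF12 fell, as given above. TNFRSF21, the death receptor DR6, went from 28.3 CPM ± 2.51 to 44.5 CPM ± 0.935, a log2 fold change of 0.65 ± 0.0721 (SE, adjusted p = 1.02e-05, edgeR).

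LTBR, the receptor of lymphotoxin and LIGHT, was called higher by 0.25 on the log2 scale (adjusted p = 0.0346, edgeR), from 102 CPM ± 7.02 (SD, n = 3) to 122 CPM ± 2.80. TNFRSF19, or TROY, was called higher by 0.21 (adjusted p = 0.0304, edgeR), from 131 CPM ± 5.83 to 151 CPM ± 0.729. Both calls were fragile: they were kept in 12 and 11 of 20 alternative analyses. With upper-quartile factors, which moved the median of all genes to -0.105 on the log2 scale, LTBR was at 0.16 and TNFRSF19 at 0.11, and neither was called.

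Osteoprotegerin, TNFRSF11B, a secreted decoy for the bone factor RANKL, was abundant and was not called, with 164 CPM ± 23.8 (SD, n = 3) without and 151 CPM ± 5.08 with 4OHT. The 95% interval of its log2 fold change was -0.47 to 0.25. TNFRSF25, the receptor of TNFSF15, was at 2.53 CPM ± 0.103 and 2.15 CPM ± 0.601, with an interval of -0.64 to 0.21. Its exons share bases with those of PLEKHG5 on the same strand, so some of its reads may be uncertain. CD40, the costimulatory receptor of antigen-presenting cells, was near the floor at 0.310 CPM ± 0.135 and 0.195 CPM ± 0.0159, and its interval of -1.53 to 0.17 leaves changes in that range undetected.

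**Figure D3:**
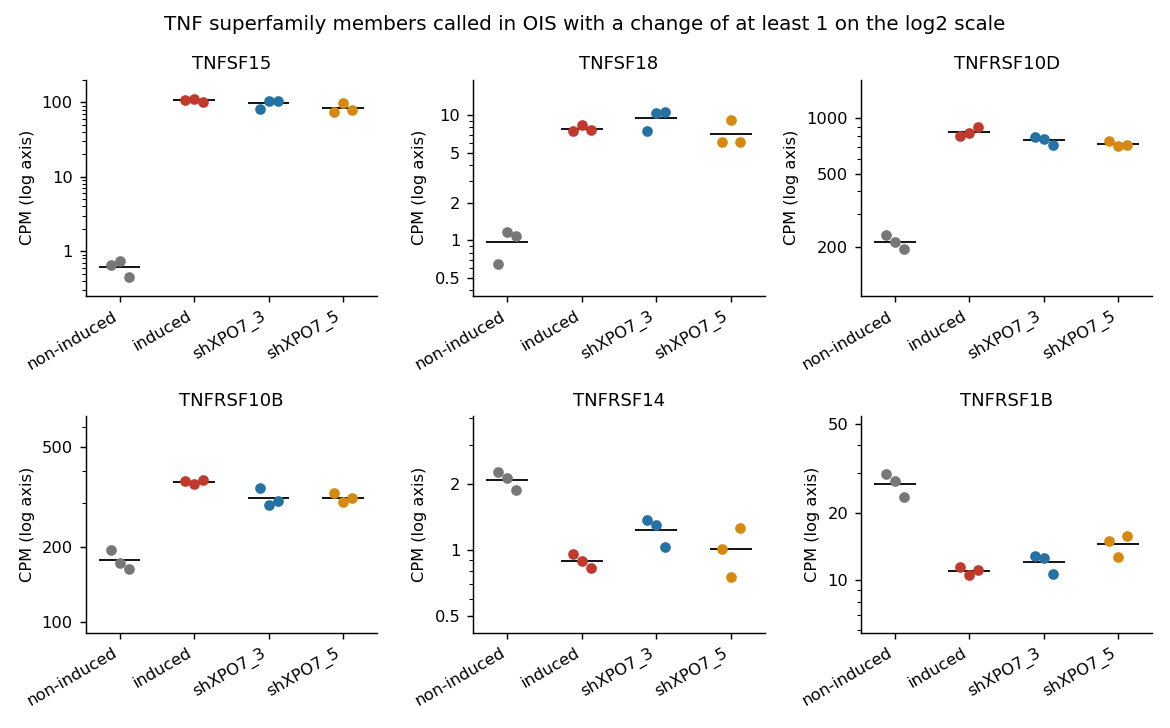
CPM (y axis, log scale) in each of the 12 libraries by group (x axis) is plotted for the 6 members called in OIS with a change of at least 1 on the log2 scale; points are libraries and bars group means. In each panel the 3 non-induced libraries lie apart from the 9 libraries with 4OHT, below them for TNFSF15, TNFSF18, TNFRSF10D and TNFRSF10B and above them for TNFRSF14 and TNFRSF1B.

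Compared per kilobase of exon, the receptors were the abundant side of the family. In induced libraries the order was led by TNFRSF10D at 239 CPM per kb ± 15.0 (SD, n = 3), TNFRSF12A at 114 ± 5.21 and TNFRSF10B at 70.5 ± 1.48, and these neighbours did not overlap. TNFRSF11B followed at 53.5 (51.5 to 54.9 over the 3 libraries), then TNFRSF1A at 36.1 ± 1.04 and TNFRSF19 at 29.6 ± 0.143. In non-induced libraries TNFRSF12A came first at 74.2 CPM per kb ± 3.30, while TNFRSF10D at 59.9 ± 5.13 and TNFRSF11B at 57.8 ± 8.42 lay within their spread of each other. Among ligands TNFSF15 was the highest in induced libraries at 13.6 CPM per kb ± 0.668, and without 4OHT it stood at 0.0774 ± 0.0180, close to TNFSF10 at 0.0771 ± 0.0251. Without 4OHT the highest ligand was TNFSF4 at 7.53 CPM per kb ± 0.258.

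For most ligands that were measured, the partner receptor was scarce, or the reverse. The TNFSF15 receptor TNFRSF25 stood at 0.501 CPM per kb ± 0.140 in induced libraries beside 13.6 for the ligand. TNFRSF18 and TNFRSF4, the receptors of TNFSF18 and TNFSF4, did not pass the filter, with 2 to 11 and 1 to 8 counts per library. TRAIL receptors were abundant beside a TRAIL level of 0.102 CPM per kb ± 0.0148. TNFSF12 and its receptor TNFRSF12A were at 2.21 and 114 CPM per kb in induced libraries, and both were above the filter's cutoff in all 12 libraries, as were TNFSF15 and TNFRSF25.

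**Figure D4:**
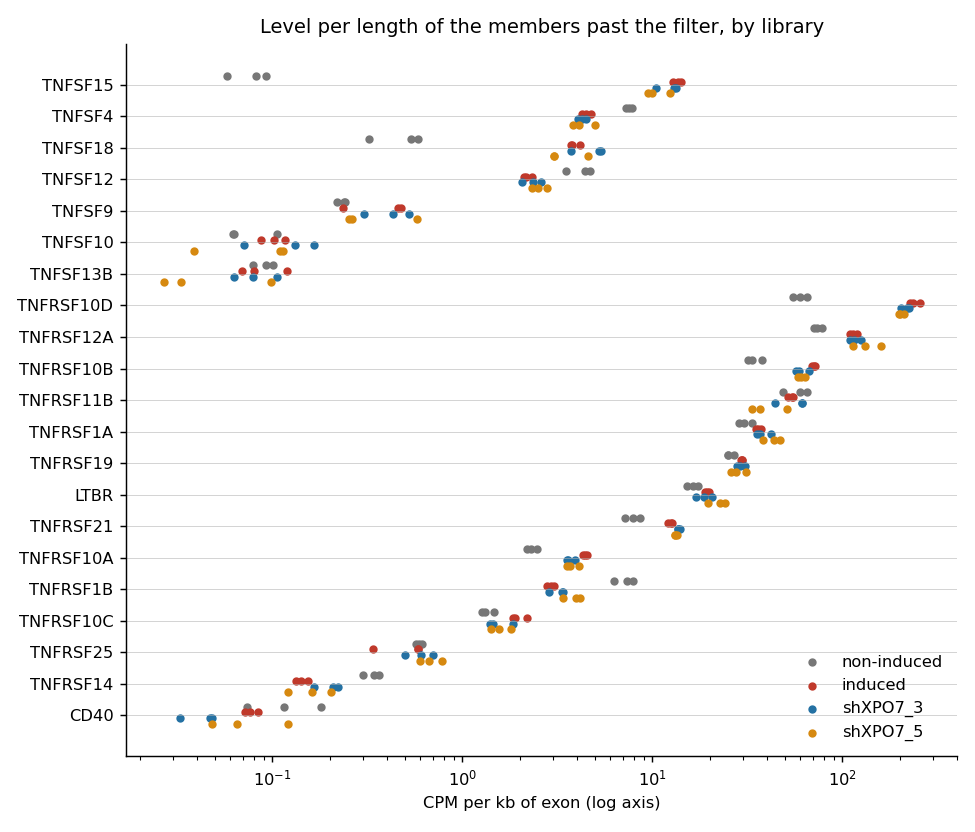
CPM per kilobase of exon (x axis, log scale) is plotted for each library of the 21 members that passed the filter (y axis), ligands above receptors, with colours for the 4 groups. Levels run from below 0.1 for CD40, TNFSF13B and TNFSF10 to 239 for the induced mean of TNFRSF10D, and the non-induced points of TNFSF15 stand apart from the rest of their row.

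Many members known from lymphocytes were near or at 0. The 19 members that did not pass the filter had at most 21 counts in any library. LTB, TNFRSF13B, TNFRSF6B and TNFSF12-TNFSF13 had 0 counts in all 12. For LTB and TNFRSF13B this allows at these depths a level of up to 0.0497 to 0.1051 CPM in a library, counting error only. No such limit holds for TNFRSF6B and TNFSF12-TNFSF13. Their exons are shared with other genes, as given below, and reads there may have been left out or assigned to those genes. CD70, the ligand of CD27, had 1 and 3 counts in 2 induced libraries and 0 elsewhere. TNFSF8 had at most 2 counts, TNFSF11 (RANKL) and TNFSF14 (LIGHT) at most 3, and TNFRSF17 (BCMA) at most 2. TNFRSF11A (RANK) and TNFRSF13C (the BAFF receptor) reached 4 counts, NGFR 5 and CD27 6. TNFRSF9 (4-1BB) had 1 to 9 counts and TNFRSF8 (CD30) 2 to 13.

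TNFSF13, or APRIL, had the highest single count of those 19, with 7, 21 and 13 counts in non-induced libraries and 4, 8 and 5 in induced ones. Summed over the 12 libraries TNFRSF8 had more, 79 counts against 75. TNFSF13 was not tested, and its counts with shXPO7_3 (1, 0 and 6) and with shXPO7_5 (1, 2 and 7) were as low. Several of these low values are uncertain by annotation. The exons of TNFRSF6B lie wholly in those of the readthrough gene RTEL1-TNFRSF6B, which had 10 to 34 counts. The 1816 exon bases of TNFSF12-TNFSF13 are likewise all shared, 553 with TNFSF12 and 1263 with TNFSF13. Those 1263 are part of the 2276 exon bases of TNFSF13, whose low counts are uncertain too. CD27 shares 522 exon bases with the opposite-strand gene CD27-AS1, which had 145 to 280 counts, and whether counting used strand is not given in the sources used here. A 0 also holds only for the identifier to which the symbol was matched.

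Of 8 genes of the superfamily with symbols outside the rule, 4 passed the filter in the same fit. FASLG, described above, passed it through the libraries with 4OHT alone, so its test is not used. Of the other 3, RELT and EDA2R were called higher in OIS, where 24.8% of all genes tested were called higher. RELT, a receptor of lymphoid tissue, rose by 0.74 on the log2 scale (adjusted p = 0.000565, edgeR), and EDA2R, a receptor of ectodysplasin and known p53 target, by 0.33 (adjusted p = 0.00322, edgeR). FAS, the receptor of FASLG, was at 24.2, 34.4 and 40.1 CPM in non-induced and 46.0, 46.6 and 42.8 CPM in induced libraries. The groups did not overlap, but the change of 0.45 ± 0.231 (SE) was not called (adjusted p = 0.121, edgeR). FAS was called higher in 4 of 20 alternative analyses (adjusted p from 0.0133 to 0.352 over the 20), among them the replicate block and the offset for GC content. CD40LG, LTA, EDA and EDAR had at most 12 counts in any library.

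Of 54 adaptors, kinases and NF-kB genes that act below the receptors, 50 passed the filter and 22 were called in OIS, 15 higher and 7 lower. The 15 are near the 24.8% of all genes called higher and the 7 are under the 26.1% called lower, and the list's median log2 fold change was 0.10. The largest rise was that of TANK, a TRAF-binding regulator of NF-kB, by 1.05 ± 0.228 (SE) on the log2 scale (adjusted p = 0.00208, edgeR), from 27.8 to 57.7 CPM. MAP3K14, the kinase NIK that drives the noncanonical NF-kB pathway below LTBR, CD40 and TNFRSF12A, fell by 1.46 on the log2 scale (SE 0.168, adjusted p = 1.44e-05, edgeR), from 9.77 to 3.54 CPM. TRAF5, an adaptor of CD27, CD30 and LTBR, fell from 20.1 to 8.88 CPM (adjusted p = 5.51e-05, edgeR). IKBKG and IKBKE were listed at 0 in all libraries under the identifiers matched to them, which is not read as absence, since IKBKG is used in every cell, and EDARADD and RIPK3 had at most 5 counts.

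With either shRNA against XPO7, no member was called. This was 0 of 21 with shXPO7_3, where 0.124% of all genes tested were called, and 0 of 21 with shXPO7_5, where 0.589% were called. DESeq2 called none either. At an unadjusted p under 0.05 there were 4 members with shXPO7_3 (6.41% of all genes) and 9 with shXPO7_5 (21.6% of all genes). In CPM, 6 members with shXPO7_3 (14.6% of all genes) and 10 with shXPO7_5 (26.8% of all genes) had no overlap with the induced libraries. By these 2 unadjusted measures the shares of the members are above the background for both shRNAs, while none was called. The 2 comparisons share the same 3 induced libraries, so they are given side by side and are not independent of each other. The 4 members with shXPO7_3 were TNFRSF14 and the neighbouring related copies TNFRSF10A, TNFRSF10B and TNFRSF10C. The part in these shares of the trend with GC content, given below, was not tested.

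The members without overlap for both shRNAs were TNFRSF10A, TNFRSF10B, TNFRSF10D and TNFRSF21. For TNFRSF10B the induced libraries gave 367, 355 and 368 CPM, those with shXPO7_3 342, 295 and 304 CPM and those with shXPO7_5 327, 301 and 314 CPM. The log2 fold changes were -0.21 (95% interval -0.38 to -0.04, adjusted p = 0.568, edgeR) and -0.21 (-0.38 to -0.04, adjusted p = 0.187, edgeR). TNFRSF10A stood at 11.5, 10.4 and 10.7 CPM and at 12.1, 10.5 and 10.9 CPM with the 2 shRNAs, beside 13.1, 12.7 and 13.4 CPM in the induced libraries. Its log2 fold changes were -0.27 (-0.45 to -0.08, adjusted p = 0.435, edgeR) and -0.23 (-0.41 to -0.05, adjusted p = 0.191, edgeR). For TNFRSF10D they were -0.15 and -0.23, and for TNFRSF21 they were 0.15 and 0.10. TNFRSF10C was at 3.46, 2.69 and 2.61 CPM with shXPO7_3 and at 2.63, 2.90 and 3.36 CPM with shXPO7_5, beside 4.10, 3.54 and 3.43 CPM in the induced libraries. Its log2 fold changes were -0.34 (unadjusted p = 0.0318, adjusted p = 0.668, edgeR) and -0.31 (unadjusted p = 0.0494, adjusted p = 0.231, edgeR). For TNFRSF10A, TNFRSF10B and TNFRSF10D every knockdown library still lay above every non-induced library, while for TNFRSF10C the lowest of them, 2.61 CPM, was below the highest non-induced library at 2.72 CPM.

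A trend of counts with the GC content of transcripts ran through the libraries and differed between them. The rank correlation of a library's log ratio to the induced mean with GC content, across genes, was 0.557, -0.336 and -0.235 in the shXPO7_3 libraries and 0.590, 0.120 and 0.765 in the shXPO7_5 libraries, replicates T, A and B. With shXPO7_5 the log2 fold changes themselves followed GC content across genes, with a rank correlation of 0.674 over all genes tested with a known GC content and 0.721 over the 21 members, which are not independent replicates. With shXPO7_3 these were 0.114 and 0.206. The part of this trend in any single value was not tested other than by the offset that follows.

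With an offset for GC content and transcript length, added after the data were seen, TNFRSF10A and TNFRSF10B were called lower with both shRNAs. That is 2 of 21 members with shXPO7_3, where 2.26% of all genes tested were called, and 2 of 21 with shXPO7_5, where 2.85% were called. TNFRSF10B was at -0.23 on the log2 scale with shXPO7_3 (adjusted p = 0.0119, edgeR) and at -0.35 with shXPO7_5 (adjusted p = 0.00164, edgeR). TNFRSF10A was at -0.28 (adjusted p = 0.0354, edgeR) and at -0.36 (adjusted p = 0.0107, edgeR). TNFRSF10C and TNFRSF10D pointed the same way and were not called, with -0.37 and -0.15 for shXPO7_3 and -0.46 and -0.19 for shXPO7_5. In OIS, with the same offset, TNFRSF10B was at 1.11, TNFRSF10A at 1.02 and TNFRSF10C at 0.64 on the log2 scale.

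One library set the count with shXPO7_5. Without its replicate A, 7 of the 21 members were called, where 23% of all genes tested were called. In replicates T, A and B TNFRSF1B was at 14.9, 12.7 and 15.7 CPM with shXPO7_5, beside 11.4, 10.5 and 11.1 CPM in the induced libraries. TNFRSF1A stood at 175, 153 and 189 CPM beside 141, 149 and 144 CPM in the induced libraries, LTBR at 142, 123 and 151 CPM beside 119, 122 and 125 CPM, and TNFRSF12A at 244, 210 and 296 CPM beside 201, 211 and 220 CPM. Replicate A lay nearest the induced libraries for all 4, and within their range for LTBR and TNFRSF12A. TNFSF13B was at 0.101, 0.302 and 0.0819 CPM beside 0.246, 0.213 and 0.363 CPM, and TNFRSF11B at 94.8, 145 and 104 CPM beside 153, 155 and 146 CPM.

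Without replicate A TNFRSF1B, TNFRSF1A, LTBR and TNFRSF12A were higher, by 0.48, 0.33, 0.26 and 0.36 on the log2 scale, and TNFSF13B, TNFRSF11B and TNFSF15 lower, at -1.60, -0.61 and -0.48. The transcripts of the first 4 are rich in GC, at 60.7%, 56.6%, 60.3% and 64.2%, and those of the other 3 are at 39.7%, 42.8% and 42.4%. With the offset on all 12 libraries none of these 7 was called. TNFRSF1B and TNFRSF1A were then at 0.16 and 0.06, while LTBR and TNFRSF12A changed sign, to -0.05 and -0.04. TNFSF13B was at -0.53, TNFRSF11B at -0.22 and TNFSF15 at -0.15 (adjusted p = 0.251 for TNFSF15, edgeR).

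**Figure D5:**
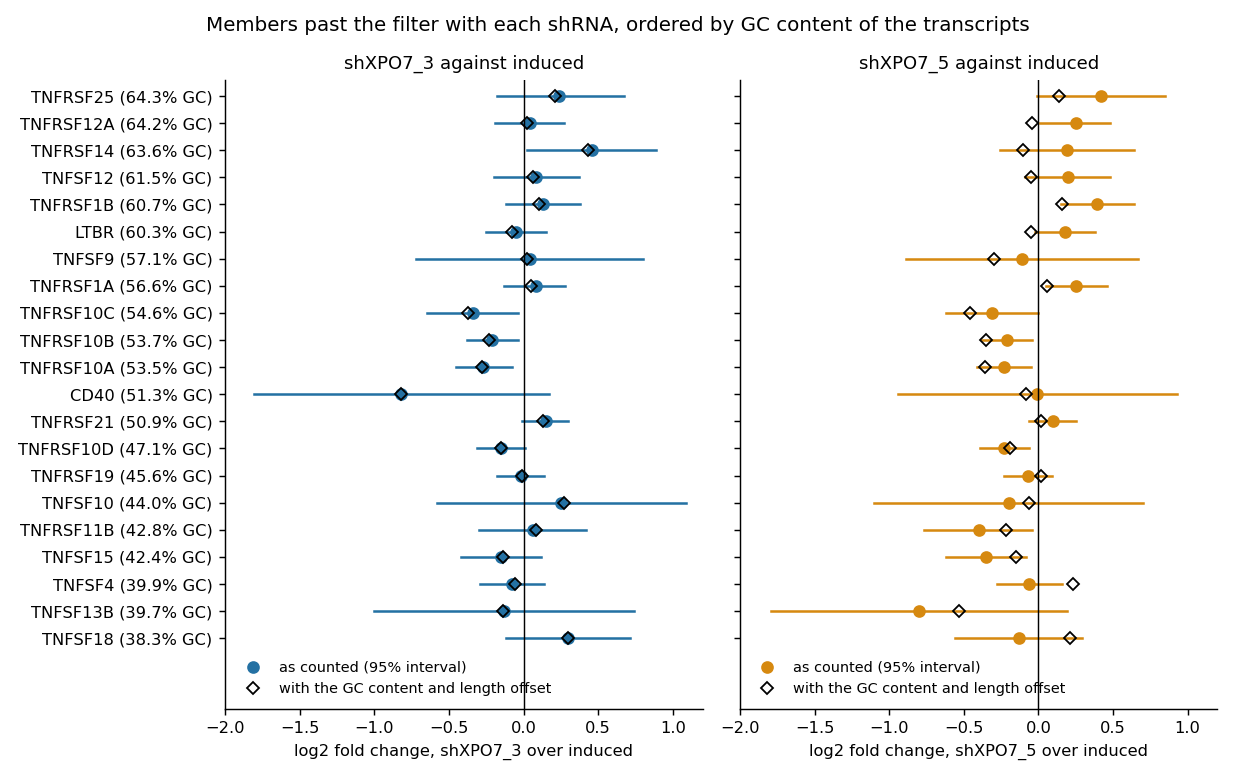
The log2 fold change against induced libraries (x axis) is shown for the 21 members (y axis, ordered by GC content) with shXPO7_3 on the left and shXPO7_5 on the right; filled points with 95% intervals are as counted and open diamonds are with the offset for GC content and transcript length. With shXPO7_5 the filled points shift from lower at low GC content to higher at high GC content. TNFRSF10A, TNFRSF10B, TNFRSF10C, TNFRSF10D, TNFSF15, TNFSF13B and CD40 lie below 0 in both panels with and without the offset. For CD40 the shXPO7_5 value as counted is only -0.01, with an interval of -0.94 to 0.93.

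The 2 shRNAs, which lowered XPO7 to different levels, were also compared with each other. No member was called (0 of 21, where 0.0131% of all genes tested were called), 4 had an unadjusted p under 0.05 (11.9% of all genes), and 2 did not overlap (9.71% of all genes). These were TNFRSF21, with a log2 difference of -0.05 (95% interval -0.21 to 0.10, shXPO7_5 minus shXPO7_3), and CD40, with 0.81 (-0.20 to 1.82) at a level of at most 0.303 CPM in the 9 libraries with 4OHT. For TNFSF15 the difference was -0.21 (-0.48 to 0.06) and for TNFSF18 it was -0.43 (-0.85 to -0.01).

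Outside the rule, FAS and EDA2R were lower with shXPO7_5 than in induced libraries, without reaching the threshold. FAS was at 24, 37 and 21.8 CPM (log2 fold change -0.71 ± 0.233 SE, adjusted p = 0.16, edgeR) and EDA2R at 28.4, 32.6 and 29.4 CPM (-0.31 ± 0.0766 SE, adjusted p = 0.0877, edgeR). EDA2R was called by DESeq2 (adjusted p = 0.0285) and with the offset (adjusted p = 0.0469, edgeR), and FAS with no filter on low counts, and both were called without shXPO7_5 replicate A. None of the 50 tested adaptors, kinases and NF-kB genes was called with either shRNA, by edgeR or DESeq2, where 0.124% and 0.589% of all genes tested were called by edgeR. At an unadjusted p under 0.05 there was 1 with shXPO7_3 (6.41% of all genes) and 12 with shXPO7_5 (21.6% of all genes). With the offset, TRAF1 was called lower with shXPO7_3, at -0.39 (adjusted p = 0.0447, edgeR). Without shXPO7_5 replicate A, 19 of the signalling genes were called with shXPO7_5, where 23% of all genes tested were called. NFKBIB, NFKBIE, RELB, RHBDF2, RNF31, SHARPIN, TAB1, TNIP2 and TRAF3IP2 were the 9 called higher, by 0.30 to 0.56 on the log2 scale, with a GC content of 51.9% to 65.2%. The 10 called lower were ADAM10, BIRC2, BIRC3, CHUK, CYLD, MAP3K7, TAB3, TANK, TBK1 and XIAP, at -1.24 to -0.32, with a GC content of 37.2% to 45.8%.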

How the data were processed

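The counts deposited by the authors are whole reads per gene in 12 libraries, not normalized, in 1 table of 62069 Ensembl identifiers and 92 ERCC entries that were all 0. The submitters' processing notes list TopHat2 2.0.11, CASAVA 1.8.4 and featureCounts 1.18.0, with hg19/GRCh37 as build. Which annotation and strand setting were used, and how multiply matching reads were treated, is not given in the sources used here. Symbols were matched by identifier to a later annotation, GENCODE 29 on GRCh38, which also gave exon lengths and GC content. Counts on identifiers that carry a symbol were 99.49% of the total.

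The counts went into edgeR 4.0.16 under R 4.3.3: filterByExpr with the groups, TMM factors, and a quasi-likelihood fit to all 12 libraries without covariates, Benjamini-Hochberg adjusted over 15284 genes at a threshold of 0.05. CPM are scaled to the TMM-adjusted total, intervals are at 95%, and CPM per kb divide by the exon length of all transcripts joined. The paper describes gene set enrichment analysis of these data, and no test per gene. The fit was tested on simulated data. Chi-square per gene between libraries of 1 group was 4.52 to 61.7, above sampling noise, and no library was taken for a repeat of another. Alternatives were RLE and upper-quartile factors, 2 other filters, DESeq2 1.42.0, fitting just the 2 groups under comparison, blocking on the replicate letter, dropping each library, and requiring a log2 fold change of 1 or more. The offset for GC content and length (a spline with 5 degrees of freedom) was added after the data were seen.

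All 40 members are named. Values in each library are given for members called in OIS with a change of at least 1 on the log2 scale and, in the groups compared, for those called in a comparison with a shRNA under an alternative. The other members are given by mean and SD or by range. Of the lists of signalling genes and of superfamily genes with other symbols, those called in OIS with a change of at least 1 on the log2 scale, or with a shRNA under an alternative, are named, together with genes at 0 and FAS and EDA2R, which were chosen after their values were seen. The members, lists and motifs were chosen with earlier results of these data known.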

Additional observations from a re-analysis of the deposited data

How the results depend on the processing

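For OIS, 14 members were called, 12 to 15 over the analyses that leave out 1 library, and 12 to 15 over the other settings, except that 6 remained when a log2 fold change of at least 1 was also required. On that condition 3 signalling genes were called, beside 22 without it. They were 1 higher (6.78% of all genes) and 2 lower (10.1% of all genes). Of the superfamily genes with other symbols 1 remained, beside 3, and it was FASLG, whose test is not used. Leaving out 1 library gave 18 to 26 signalling genes and 3 genes with other symbols each time, FASLG among them, which passed the filter through the libraries with 4OHT alone. LTBR lost its call without non-induced replicate A or C or any induced library (log2 fold change 0.21 to 0.31 over libraries left out), and TNFRSF19 without non-induced replicate T or C, any induced library or shXPO7_3 replicate B (0.19 to 0.24). TNFRSF1A gained a call without non-induced replicate T, shXPO7_3 replicate T or shXPO7_5 replicate A or B (0.18 to 0.30), and TNFSF9 without induced replicate A (adjusted p = 0.048, edgeR). No alternative turned the direction of a called value.

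With the shRNAs the counts of 0 rest on the settings. The offset for GC content and length called 2 members and 1 signalling gene with shXPO7_3, and 2 members and 1 gene with another symbol with shXPO7_5. For shXPO7_5 DESeq2 and the lack of a filter each called 1 gene with another symbol. Without shXPO7_5 replicate A, 7 members, 19 signalling genes and 2 genes with other symbols were called, and without any other single library 0, so the ranges were 0 to 7, 0 to 19 and 0 to 2. For shXPO7_3 and for the 2 shRNAs against each other the count was 0 whichever library was left out. The cause of these shifts was not tested.

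Replicate letters are shared by groups, except that the non-induced group has C in place of B. Same-letter libraries did not deviate together throughout: 8 of 15 same-letter correlations were over 0.1 (lowest -0.234, median 0.108, highest 0.589). With the letter as a replicate block 13 members were called in OIS and 0 with each shRNA. The block of C holds a single library, so in that fit OIS rests on non-induced replicates T and A only. At these depths changes of low genes such as CD40, TNFSF10 and TNFSF13B could not be detected within their intervals.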
